A study of Homo sapiens with 6 samples.

Results

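The genes described here are 10 amino acid transporters, whose transcripts were counted in bulk RNA of U118 cells. U118 is an established line from a human malignant glioma, which the labels call astroblastoma. SLC36A1 was chosen because its transcript was lower in all 4 RIPK2 knockdown libraries than in both controls, and 9 further lysosomal and plasma membrane carriers were chosen by function, to ask whether that fall was shared. All 10 were found among the 20263 gene IDs of the count table by their symbols, and all 10 passed the filter on low counts. The knockdown group was 4 libraries (siRIPK2_1 to siRIPK2_4) of U118 cells given siRNA to knock down RIPK2 and sampled on day 2. RIPK2 is the kinase through which NOD receptors signal. The controls were 1 library of cells given a negative control siRNA (siNC) and 1 library of wild-type cells (WT), sampled on the same day. All cells were grown in DMEM with serum. The labels do not say whether the 4 knockdown libraries stand for 4 siRNAs or for repeats with the same siRNA, or came from separate cultures, nor whether WT cells went through a mock transfection. The p-values below therefore measure the spread between these libraries, which may be technical.

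Cells take up amino acids through carriers of several families and recover more from protein broken down in lysosomes, and the lysosome is also where amino acids are sensed by the growth kinase complex mTORC1. SLC36A1 moves small neutral amino acids together with protons and sits in the lysosomal and plasma membranes, and SLC36A4 is its paralog for proline and tryptophan. SLC38A9 is the lysosomal arginine sensor that speaks to mTORC1 through the Ragulator complex. At the cell surface, SLC1A5 and the sodium-coupled carriers SLC38A1 and SLC38A2 bring in glutamine and other neutral amino acids, while SLC7A5, bound to its heavy chain SLC3A2, exchanges intracellular glutamine for leucine. SLC7A1 takes up arginine and lysine, and SLC43A2 is a facilitated carrier of large neutral amino acids.

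Promoter windows of 3 members are shown because 2 of them were below both controls in every knockdown library (SLC36A1 and SLC36A4) and the third, SLC7A1, was above both. Each window runs from 250 bases before to 50 bases after a RefSeq transcript start (build GRCh38.p14), 5′ to 3′ on the gene's strand. They lie at chr5:151447353-151447652 (plus strand), chr11:93197942-93198241 (minus strand) and chr13:29595639-29595938 (minus strand). Capitals mark CACGTG, the E-box read by the lysosomal regulators TFEB and TFE3 among others, or TGATGNAA, a form of the amino acid response element read by ATF4. Both motifs were searched on both strands and do not overlap each other in these windows.
SLC36A1: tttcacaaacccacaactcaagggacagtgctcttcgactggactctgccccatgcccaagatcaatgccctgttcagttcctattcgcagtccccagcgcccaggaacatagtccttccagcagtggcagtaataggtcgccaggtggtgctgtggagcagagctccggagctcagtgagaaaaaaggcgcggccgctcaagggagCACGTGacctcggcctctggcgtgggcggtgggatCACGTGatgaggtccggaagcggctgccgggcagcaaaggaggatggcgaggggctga
SLC36A4: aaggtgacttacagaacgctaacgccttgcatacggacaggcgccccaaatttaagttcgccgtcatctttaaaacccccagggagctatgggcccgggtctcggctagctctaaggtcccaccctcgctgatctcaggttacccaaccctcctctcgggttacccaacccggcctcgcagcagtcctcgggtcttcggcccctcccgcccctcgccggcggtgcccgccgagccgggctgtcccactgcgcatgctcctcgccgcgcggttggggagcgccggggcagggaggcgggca
SLC7A1: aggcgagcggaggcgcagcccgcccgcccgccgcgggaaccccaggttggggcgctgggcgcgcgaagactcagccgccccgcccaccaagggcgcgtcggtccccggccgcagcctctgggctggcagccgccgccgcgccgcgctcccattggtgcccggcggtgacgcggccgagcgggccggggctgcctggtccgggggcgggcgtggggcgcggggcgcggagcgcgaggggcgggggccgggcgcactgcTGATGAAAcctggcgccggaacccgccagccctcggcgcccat
The SLC36A1 window held 2 copies of CACGTG, which begin 43 and 8 bases before the start, and its other window, around a start further upstream, held none. Of 35116 RefSeq windows of 300 bases, 7.26% held CACGTG at least once and 0.664% held it 2 or more times. SLC1A5 and SLC7A5 each had 1 window with CACGTG, so 3 of the 10 members carried it. TGATGNAA, present in 3.62% of all windows, was found in 1 window each of SLC7A1, SLC38A1, SLC1A5 and SLC3A2. The 10 members have 21 windows between them, so these counts of members cannot be set against the shares per window. SLC36A4 held neither motif in its 2 windows. These matches describe letters in short windows and say nothing of which factor was bound.

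Total counts ranged from 37243009 to 45309423 in the siRIPK2 libraries, with 33540619 in siNC and 35782060 in WT. Levels are CPM, that is counts scaled to library size, with TMM factors. On the CPM scale 3 counts, the detection floor, were worth 0.0662 to 0.0894 before TMM scaling (counting error only). RIPK2, the target, was at 3.86, 11.9, 6.27 and 4.32 CPM in siRIPK2_1 to siRIPK2_4, against 43.4 CPM in siNC and 56.8 CPM in WT. Of 8 markers of astroglia and glioma, 4 averaged at least 1 CPM: vimentin (VIM) was at 3812 to 7190 CPM in siRIPK2, 7572 CPM in siNC and 6476 CPM in WT, whereas the astrocyte gene GFAP was at 0.531 to 0.777 CPM in siRIPK2, 1.09 CPM in siNC and 0.999 CPM in WT, and AQP4 had no counts. The stem cell factor SOX2 was at 0.908 to 13.998 CPM in siRIPK2, 0.748 CPM in siNC and 2.58 CPM in WT, NES at 19.5 to 73.1 CPM in siRIPK2, 18.5 CPM in siNC and 69.1 CPM in WT, and CD44 at 224 to 489 CPM in siRIPK2, 556 CPM in siNC and 475 CPM in WT. The part of these markers in the results below was not tested. Of 19 markers of neurons, oligodendrocytes, macrophages, endothelium and epithelium, 9 averaged at least 1 CPM. In bulk RNA, fewer cells of a kind and less RNA per cell cannot be told apart.

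The fall of SLC36A1 was shared in direction by its paralog SLC36A4 and by no other member in all 4 libraries. SLC36A1 was lower than both controls in 4 of 4 knockdown libraries by choice, and SLC36A4 was lower in 4 of 4 by a smaller margin. SLC7A1 was above both controls in 4 of 4, and the knockdown and control levels of the other 7 overlapped. So 2 of the 10 members, 1 of them chosen for it, lay wholly below both controls, where 5.45% of the 13901 genes tested did, and 1 lay wholly above, where 4.95% did. With 10 genes, shares of this size rest on 1 or 2 of them.

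None of the 9 members other than SLC36A1 passed edgeR's quasi-likelihood test after adjustment over all genes (threshold 0.05). This held against siNC (adjusted p of 1 for each, after rounding), against WT (adjusted p of 1 for each) and against both controls together (adjusted p of 1 for each, after rounding). The share of all genes called was 0% of 14306 against siNC, 0% of 14306 against WT and 0% of 13901 against both controls, and at an unadjusted p under 0.05 edgeR had 1.23% of genes lower and 1.32% higher against both controls. At that unadjusted level 0 of the 9 members passed in edgeR in any of the 3 comparisons, and 0 passed after adjustment in DESeq2 or limma-voom. Against both controls the 9 had a median log2 fold change of 0.13, with 4 lower and 5 higher, beside a median of 0.01 over all genes tested. Against siNC 3 of the 9 were lower and 6 higher (median 0.12), and against WT 4 were lower and 5 higher (median 0.04). The 3 comparisons share the same siRIPK2 libraries. RIPK2 itself, with a log2 fold change of -2.93 against both controls and an unadjusted p of 8.17e-05, had an adjusted p of 0.739 in edgeR, so the targeted gene did not pass either.

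**Figure D1:**
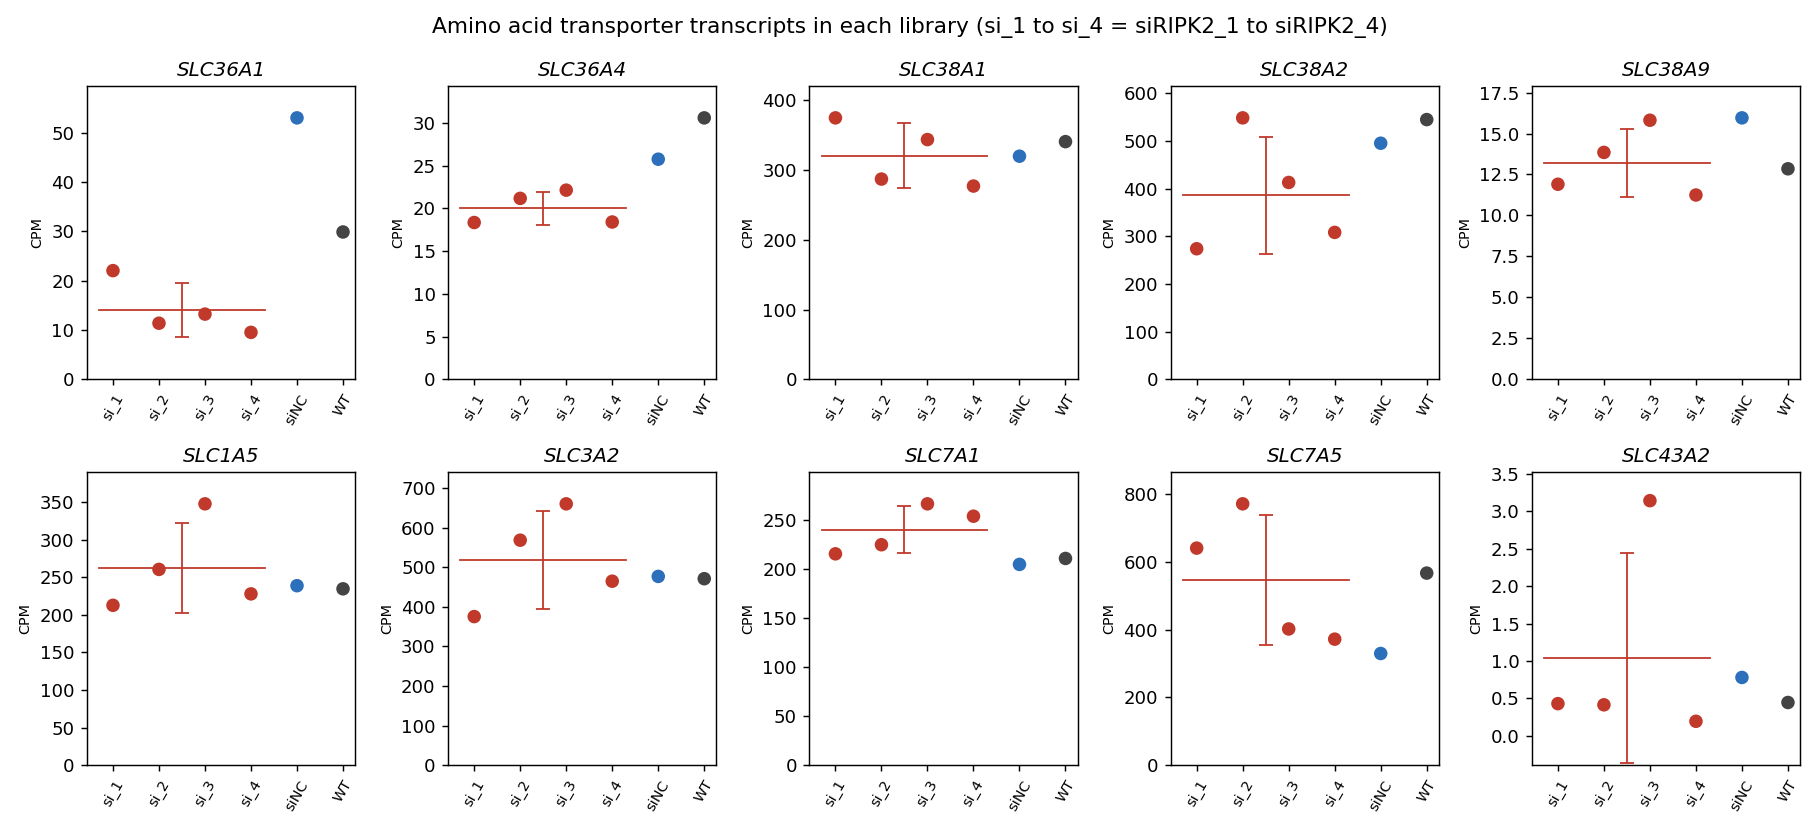
Level in CPM of each of the 10 transporters (1 panel each) in siRIPK2_1 to siRIPK2_4 (red), siNC (blue) and WT (grey); the red line and bar are the mean and SD of the 4 siRIPK2 libraries. SLC36A1 and SLC36A4 lie below both controls in all 4, SLC7A1 lies above both, and the groups of the other 7 overlap.

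Of the lysosomal carriers, SLC36A1 (ENSG00000123643, chromosome 5, 151437046 to 151492381, plus strand, GRCh38) was at 22.04, 11.4, 13.2 and 9.51 CPM in siRIPK2_1 to siRIPK2_4, against 53.0 CPM in siNC and 29.9 CPM in WT. These levels rest on 346 to 874 counts in the siRIPK2 libraries, 1702 in siNC and 1077 in WT. The 4 knockdown libraries were all below the lower control, WT, and siRIPK2_1 came nearest to it at 73.8% of the WT level. Their mean of 14.04 ± 5.55 CPM (SD, n = 4) was 26.5% of siNC and 47.0% of WT. As a description with no test, since this fall chose the gene, the log2 fold change was -1.92 against siNC, -1.09 against WT and -1.56 against both controls. The size of the fall depends on the control, because siNC itself stood at 177% of WT, and neither control has a replicate. Without siNC the log2 fold change against controls was -1.09, and without WT it was -1.93. The library siRIPK2_1 had the least RIPK2 (3.86 CPM) and the most SLC36A1, and siRIPK2_4, at 4.32 CPM of RIPK2, had the least SLC36A1. A relation between residual RIPK2 and SLC36A1 was not tested.

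SLC36A4 (ENSG00000180773, chromosome 11, 93144171 to 93197964, minus strand) was at 18.3, 21.2, 22.1 and 18.4 CPM in the 4 siRIPK2 libraries, against 25.7 CPM in siNC and 30.6 CPM in WT. The groups did not overlap, and the knockdown libraries lay close together, at a mean of 20.004 ± 1.93 CPM (SD, n = 4), which was 77.7% of siNC and 65.4% of WT. The log2 fold change against both controls was -0.49 (SE 0.220), with an unadjusted p of 0.0526 and an adjusted p of 1 (rounded) in edgeR. This was the lowest unadjusted p of the 9 in that comparison, and in DESeq2 it was 0.0434. Against siNC alone the log2 fold change was -0.36 (SE 0.307) and against WT -0.61 (SE 0.302). The other 2 members of the family, SLC36A2 and SLC36A3, had no counts in any library, so SLC36A1 and SLC36A4 were the SLC36 genes detected at this depth.

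SLC38A9 (chromosome 5, 55625845 to 55773194, minus strand) was at 11.9, 13.8, 15.8 and 11.2 CPM in the siRIPK2 libraries, against 15.96 CPM in siNC and 12.8 CPM in WT. All 4 lay below siNC, but 2 lay above WT, so the groups overlapped. The log2 fold change against both controls was -0.12 (SE 0.260), smaller than its error.

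Among the sodium-coupled neutral carriers, SLC38A2, whose transcript is known to be induced when amino acids are scarce, was the more variable. It stood at 274, 549, 413 and 308 CPM in siRIPK2_1 to siRIPK2_4, against 495 CPM in siNC and 545 CPM in WT. Libraries 1, 3 and 4 were below both controls, and siRIPK2_2 was above both. The log2 fold change against both controls was -0.43 (SE 0.286, unadjusted p of 0.168 and adjusted p of 1, rounded, in edgeR). Without siRIPK2_2 it was -0.65, with an adjusted p of 0.999 in edgeR. That omission is singled out because siRIPK2_2 was above both controls, so a deeper fold change follows from the choice and is no sign of a shared fall.

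SLC38A1 lies 88.2 kb from SLC38A2 on the same strand of chromosome 12 and was steadier. It was at 375, 287, 344 and 277 CPM in the siRIPK2 libraries, against 319.9 CPM in siNC and 341 CPM in WT. The controls fell within the knockdown range, and the log2 fold change against both controls was -0.04 (SE 0.206).

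The heavy chain SLC3A2 was at 375, 568, 660.1 and 465 CPM in siRIPK2_1 to siRIPK2_4, against 477 CPM in siNC and 471 CPM in WT. Its light chain SLC7A5 was at 641, 772, 402 and 372 CPM in the siRIPK2 libraries, against 330.0 CPM in siNC and 567 CPM in WT. SLC7A5 was above siNC in 4 of 4 libraries, yet 2 were above and 2 below WT, since siNC stood at 58.1% of WT. Its log2 fold change was 0.73 (SE 0.459) against siNC, where edgeR gave an unadjusted p of 0.152, and -0.05 against WT (SE 0.434). SLC3A2 had a log2 fold change against both controls of 0.13 (SE 0.250).

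The chains did not move in parallel. Per kb of exon, the ratio of SLC3A2 to SLC7A5 was 0.536, 0.675, 1.503 and 1.14 in siRIPK2_1 to siRIPK2_4, against 1.32 in siNC and 0.761 in WT. SLC7A5 led in libraries 1, 2 and WT, and SLC3A2 led in libraries 3, 4 and siNC, so this order followed neither the knockdown nor the controls.

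SLC1A5, the glutamine exchanger, was at 213, 261, 348 and 228 CPM in siRIPK2, against 239 CPM in siNC and 235 CPM in WT. Library 3 was high and the other 3 lay around the controls, with a log2 fold change against both controls of 0.15 (SE 0.241). Its exons overlap an antisense gene by 780 bases, and the strand setting of the counting is not given in the sources used here, so some of these reads could belong to the antisense gene. SLC7A5 likewise overlaps an antisense gene by 271 bases.

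SLC7A1, the arginine and lysine carrier, was at 216, 225, 267 and 254 CPM in the siRIPK2 libraries, against 205 CPM in siNC and 211 CPM in WT. All 4 were above both controls, but siRIPK2_1 was at only 102% of WT. The mean of 240.4 ± 24.0 CPM (SD, n = 4) was 117% of siNC and 114% of WT, with a log2 fold change against both controls of 0.21 (SE 0.194, unadjusted p of 0.309 and adjusted p of 1, rounded, in edgeR).

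SLC43A2 was barely expressed, with 17, 17, 142 and 7 counts in siRIPK2_1 to siRIPK2_4, against 25 in siNC and 16 in WT. Its level was 0.429, 0.413, 3.14 and 0.192 CPM in siRIPK2, against 0.779 CPM in siNC and 0.444 CPM in WT. A single library, siRIPK2_3, set its mean: the log2 fold change against both controls was 0.78 (SE 1.06), and -0.81 without that library.

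**Figure D2:**
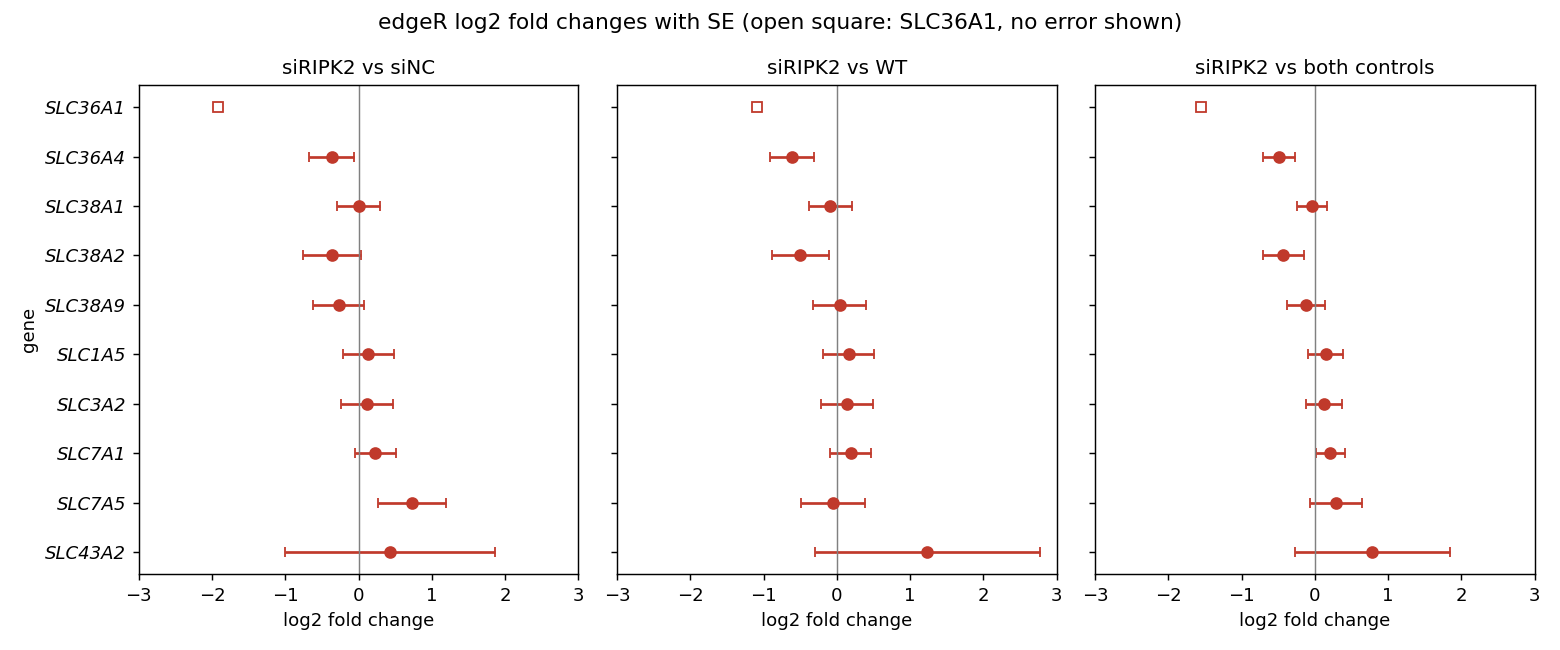
Log2 fold change of each transporter (rows) in edgeR for siRIPK2 vs siNC, siRIPK2 vs WT and siRIPK2 vs both controls, with SE bars; SLC36A1 is an open square with no error because its fall chose it. SLC36A4 lies at -0.36, -0.61 and -0.49, and SLC7A5 at 0.73, -0.05 and 0.29.

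On a length scale, CPM per kb of merged exons, the members spanned a wide range. In WT the order ran from SLC7A5 (119.6 CPM per kb) through SLC3A2 (91.0), SLC38A2 (82.5), SLC1A5 (70.4), SLC38A1 (34.02) and SLC7A1 (27.4) to SLC36A1 (4.28), SLC36A4 (3.16), SLC38A9 (1.46) and SLC43A2 (0.0419). The 4 siRIPK2 libraries gave 115 ± 40.5 CPM per kb for SLC7A5 and 99.9 ± 23.9 for SLC3A2 (SD, n = 4), which do not differ beyond their spread. SLC36A1 stood above SLC36A4 per kb in both controls (7.60 against 2.66 in siNC and 4.28 against 3.16 in WT). In siRIPK2 they stood at 2.01 ± 0.795 and 2.07 ± 0.200 CPM per kb (SD, n = 4), within their spread. This restates the fall that chose SLC36A1. The 3 lysosomal carriers were all below each of the surface carriers other than SLC43A2 in every library.

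**Figure D3:**
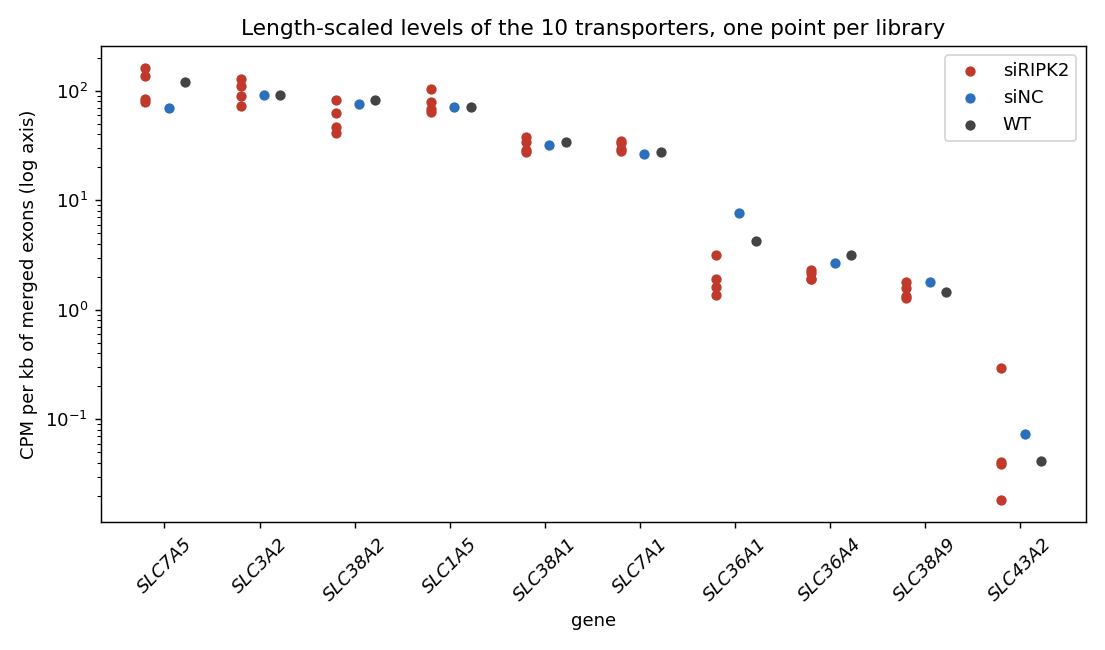
Level per kb of merged exons on a log axis for each of the 10 transporters, 1 point per library, with siRIPK2 (red), siNC (blue) and WT (grey) and genes ordered by their WT level. SLC36A1 reads 4.28 CPM per kb in WT and 1.36 to 3.16 in siRIPK2, which overlaps the range of SLC36A4.

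No further amino acid carrier passed edgeR's adjusted threshold against both controls, but 0 of all 13901 genes tested did, so this does not set carriers apart. Of 22 further plasma membrane carriers, 13 passed the filter on low counts. Of these, 9 were lower and 4 higher against both controls (median log2 fold change -0.15), where 47.9% of all genes tested were lower and their median was 0.01. Of the 13, 0 lay wholly below or above both controls, where 5.45% and 4.95% of all genes tested did. Named by the lowest unadjusted p, SLC7A6, a light chain partner of SLC3A2, was at 29.5, 60.4, 49.8 and 20.5 CPM in siRIPK2, against 27.1 CPM in siNC and 22.6 CPM in WT. The glutamate carrier SLC1A1 was at 4.84, 18.3, 5.27 and 9.32 CPM in siRIPK2, against 18.8 CPM in siNC and 13.5 CPM in WT. The glycine carrier SLC6A9 ranged from 15.6 to 58.4 CPM and the taurine carrier SLC6A6 from 46.6 to 145 CPM over the siRIPK2 libraries, which spans both controls of each. The exons of SLC7A6, SLC6A9 and SLC6A6 overlap another listed gene, so their counts are uncertain.

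Of 12 further genes listed as lysosomal amino acid and peptide carriers, 11 were in the table and 10 were tested, with 7 lower and 3 higher (median -0.20). These 10 include SLC29A3 and SLC37A2, which are not amino acid or peptide carriers. Of the 10, 2 lay wholly below and 2 wholly above both controls, beside 5.45% and 4.95% of all genes. SLC38A7, a lysosomal glutamine carrier, was at 42.7, 49.3, 51.2 and 40.0 CPM in siRIPK2, against 37.5 CPM in siNC and 29.9 CPM in WT, higher in 4 of 4 libraries. SLC66A1, which exports arginine and lysine from lysosomes, was at 74.4, 64.8, 54.4 and 63.9 CPM in siRIPK2, against 47.9 CPM in siNC and 51.8 CPM in WT, again higher in 4 of 4. Their log2 fold changes against both controls were 0.45 (SE 0.226) and 0.37 (SE 0.214), and neither passed in edgeR (adjusted p of 1, rounded, for both).

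MFSD1, a lysosomal dipeptide carrier whose exons overlap another listed gene, split the knockdown libraries, at 71.5, 75.9, 28.3 and 28.96 CPM in siRIPK2, against 76.7 CPM in siNC and 78.8 CPM in WT. SLC29A3, a lysosomal nucleoside carrier that is on the list, was also wholly below both controls and was named after its values were seen. It was at 0.165 to 0.530 CPM in siRIPK2, 0.841 CPM in siNC and 1.30 CPM in WT. Its log2 fold change of -1.88 against both controls was further below 0 than that of SLC36A1. At under 1 CPM in every library but WT, SLC29A3 rests on far fewer counts than SLC36A1. SLC15A4, a histidine and peptide carrier, was at 38.8 to 46.0 CPM in siRIPK2, against 54.9 CPM in siNC and 45.1 CPM in WT.

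The lysosomal machinery that senses amino acids for mTORC1 showed a median log2 fold change of 0.00 over 39 tested genes, with 19 lower and 20 higher, and 3 lay wholly below (LAMTOR1, RRAGA and NPRL2) and 1 wholly above both controls (KICS2), beside 5.45% and 4.95% of all genes. LAMTOR1, which anchors the Ragulator complex in the lysosomal membrane, was at 81.9, 63.5, 91.3 and 61.1 CPM in siRIPK2, against 119.7 CPM in siNC and 137 CPM in WT. It was lower in 4 of 4 libraries, with a log2 fold change of -0.78 (SE 0.229, unadjusted p of 0.00788 and adjusted p of 1, rounded, in edgeR). RRAGA, a Rag GTPase that recruits mTORC1, was at 80.1, 130.2, 90.3 and 121 CPM in siRIPK2, against 148 CPM in siNC and 140.1 CPM in WT, with a log2 fold change of -0.45 (SE 0.244). BMT2, the S-adenosylmethionine sensor of the pathway, had -0.78 (SE 0.374), and AKT1S1, an mTORC1 inhibitor subunit that overlaps another listed gene, had 0.32 (SE 0.207).

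V-ATPase subunits, which make the proton gradient that SLC36A1 uses, had a median of 0.09 over 16 genes, with 5 lower and 11 higher, 0 wholly below and 3 wholly above both controls (ATP6V1G1, ATP6V1B2 and ATP6AP2), beside 5.45% and 4.95% of all genes. ATP6V1G1 was at 112, 114, 139.5 and 114 CPM in siRIPK2, against 78.9 CPM in siNC and 86.1 CPM in WT (log2 fold change 0.54, SE 0.204, unadjusted p of 0.0273 in edgeR). ATP6V1B2 was at 191 to 249 CPM in siRIPK2, against 179 CPM in siNC and 181 CPM in WT. ATP6V1C1 had a log2 fold change of 0.28 (SE 0.227) and ATP6V0A2 of -0.37 (SE 0.255).

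The ATF4 and amino acid response list, which includes asparagine synthetase (ASNS) and aminoacyl-tRNA synthetases, had a median of -0.03 over 22 genes, with 12 lower and 10 higher. Of the 22, 0 lay wholly below or above both controls, where 5.45% and 4.95% of all genes tested did. In so short a list such shares amount to few genes. WARS1 was at 84.5, 203, 104 and 134 CPM in siRIPK2, against 201 CPM in siNC and 179 CPM in WT. The other 3 named by the rule were SHMT2 (log2 fold change -0.58, SE 0.483), SARS1 (0.20, SE 0.217) and CEBPB (-0.20, SE 0.243). WARS1 and SHMT2 overlap another listed gene.

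Lysosome regulators and core genes had a median of -0.13 over 16 genes, with 12 lower and 4 higher, and 3 wholly below both controls, CTSB and HEXA among them, beside 5.45% of all genes. The protease gene CTSB was at 857, 1000.2, 837 and 837 CPM in siRIPK2, against 1105 CPM in siNC and 1266 CPM in WT (log2 fold change -0.43, SE 0.183, unadjusted p of 0.0457 in edgeR). CTSD, another protease gene, overlaps a listed gene and had -0.44 (SE 0.256). TFE3, which reads the E-box motif, was at 139.7 to 201 CPM in siRIPK2, against 150.4 CPM in siNC and 62.3 CPM in WT. Over these 7 lists 0 genes passed edgeR's adjusted threshold against both controls, as was true of all 13901 genes tested.

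**Figure D4:**
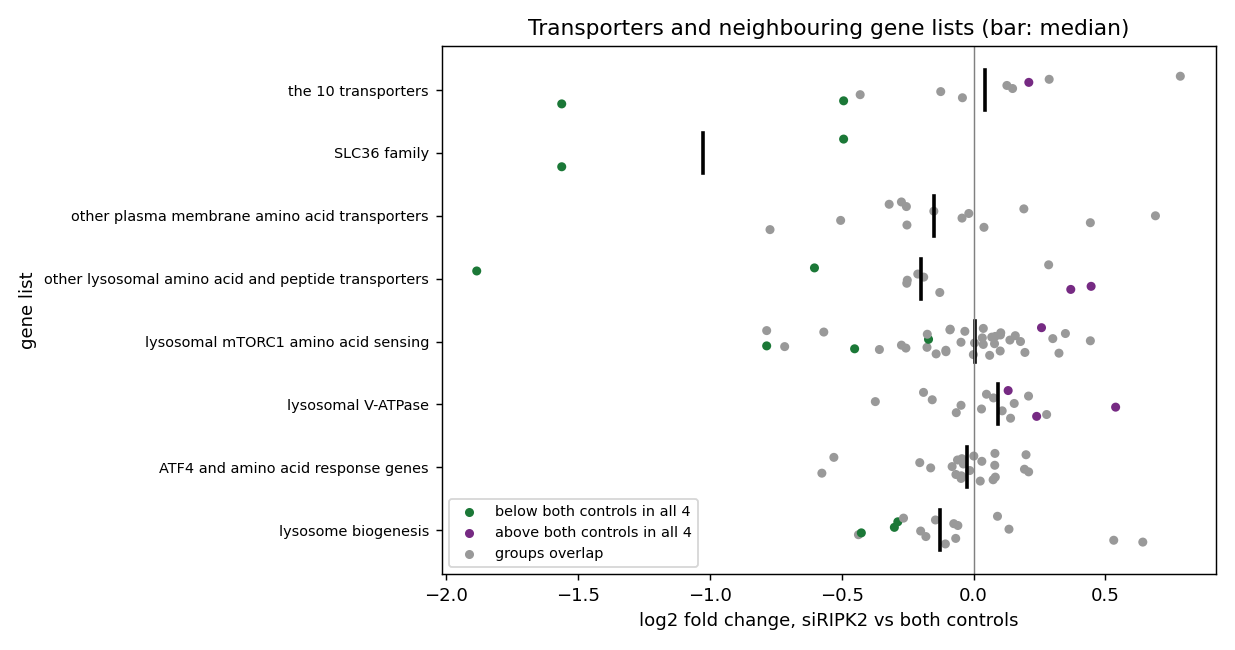
Log2 fold change (siRIPK2 vs both controls) of each tested gene of the 10 transporters and 7 gene lists, with a black bar at the median; green genes lie below both controls in all 4 siRIPK2 libraries, purple genes above both, and grey genes overlap. The medians of the mTORC1 and ATF4 lists lie at 0.00 and -0.03. The lowest genes are SLC29A3 at -1.88, under 1 CPM in every library but WT, and SLC36A1 at -1.56.

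By the pattern over the 6 libraries, the members fell on both sides of SLC36A1. As a description, Pearson's r of log2(CPM + 1) with SLC36A1 was 0.65 for SLC36A4, 0.47 for SLC38A1, 0.39 for SLC38A9 and 0.32 for SLC38A2. It was -0.79 for SLC7A1, -0.37 for SLC3A2, -0.31 for SLC1A5, -0.25 for SLC7A5 and -0.03 for SLC43A2. Among 10672 other genes with a mean of at least 5 CPM, 93.4% had a lower r than SLC36A4 and 84.8% a lower r than SLC38A1. For SLC38A9 and SLC38A2 the shares were 79.9% and 74.6%, and for SLC7A1 the share was 2.35%. The libraries are 4 knockdowns and 2 controls, so a difference between these groups shapes every such r. The 5 genes with the highest r among those with a mean of at least 5 CPM were CXXC1 (r = 0.97), TNFAIP8L1 (0.97), NEMP2 (0.97), BBC3 (0.96) and C1orf112 (0.96). Since r ignores the size of a change, all 5 fell by less than SLC36A1. Their siRIPK2 means were 44.4% to 83.2% of siNC and 62.4% to 89.5% of WT, against 26.5% and 47.0% for SLC36A1. CXXC1 was not below both controls, at 122 CPM in siRIPK2_1 against 120.3 CPM in WT. TNFAIP8L1 was at 18.1, 14.7, 17.9 and 12.2 CPM in siRIPK2, against 35.4 CPM in siNC and 25.2 CPM in WT, and the apoptosis gene BBC3 was at 7.75 to 10.9 CPM in siRIPK2, against 14.2 CPM in siNC and 13.8 CPM in WT. The exons of TNFAIP8L1, NEMP2 and C1orf112 overlap another listed gene, so their counts are uncertain. None of these 5 of 10672 genes is an amino acid carrier, but so few genes cannot show whether carriers share the pattern.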

How the data were processed

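Poly(A)-selected RNA of 6 libraries was sequenced. The deposited values are raw counts for each Ensembl ID, in a single table. The submitters' processing notes name bedtools, HISAT2, Trimmomatic and FastQC and the build GRCh38, with versions, annotation and strand setting not given in the sources used here. Symbols were matched for 20148 of 20263 IDs, and GENCODE release 29 (20224 IDs) supplied coordinates, exon lengths and overlaps. Library pairs differed by a chi-square of at least 77.1 per degree of freedom, so none was a duplicate. Pairs of siRIPK2 libraries ran from 160 to 224, pairs of a siRIPK2 library and a control from 77.1 to 199, and siNC against WT was 88.5. The knockdown libraries were thus no closer to each other than to the controls by this measure, which grows with depth.

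The main test was the quasi-likelihood F test of edgeR 4.0.16 (R 4.3.3) with TMM factors, filterByExpr at a minimum of 10 counts and Benjamini-Hochberg adjustment over all genes tested (threshold 0.05). A fit with 3 groups compared siRIPK2 with each control and the controls with each other, with 3 residual degrees of freedom that come from siRIPK2, so each lone control is assumed to vary as these do. A fit with 2 groups set siRIPK2 against both controls. SE is the log2 fold change over the square root of F. DESeq2 1.42.0, limma-voom 3.58.1, other size factors, no filter and leaving out each library were alternatives. CPM use TMM factors of the first fit.

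The members and lists were chosen with earlier results of these data known. All members and RIPK2 are named, with up to 4 genes per list by lowest unadjusted p against both controls at a mean of at least 1 CPM. The 5 genes with the highest r with SLC36A1 are named too. SLC66A4, 1 gene of the lysosomal list, is not analysed here, and 1 gene that the naming rule picked is not reported here. Promoters come from RefSeq (GRCh38.p14).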

Additional observations from a re-analysis of the deposited data

Results flagged for a closer look

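In 4 of the 40 genes checked, 1 of the 4 siRIPK2 libraries stood far from the other 3, by a rule that flags about 1 group in 20 by chance. SLC43A2 was at 3.14 CPM in siRIPK2_3, against at most 0.429 CPM in the other 3. ATP6V1G1 was highest in siRIPK2_3, at 139.5 CPM. CTSB was highest in siRIPK2_2, at 1000.2 CPM. SHMT2, whose exons overlap another listed gene, was lowest in siRIPK2_4, at 105 CPM, against at least 405 CPM in the other 3.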

How the results depend on the processing

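SLC36A1 and SLC36A4 were below both controls under every scaling. Leaving out 1 library cannot undo such a pattern, since the other levels stay as they were, so those settings could only add members. The count of members below both controls was 2 to 3 over these settings, with SLC38A2 added without siRIPK2_2, SLC43A2 without siRIPK2_3 and SLC38A9 without WT. The count above both controls was 1 to 2, with SLC7A5 added to SLC7A1 without WT. For the 9 members other than SLC36A1, adjusted p ranged, rounded, from 0.998 to 1 over all alternatives. The fold change of SLC36A1 ranged from -2.24 to -1.77 against siNC, from -1.40 to -0.94 against WT and from -1.93 to -1.09 against both controls. The number of genes called, 0 in each edgeR comparison, was 74 against siNC, 9 against WT, 11 against both controls and 11 between siNC and WT in DESeq2. Against WT it was 1 in limma-voom and 1 with no filter, and against both controls it was 0 to 2 with 1 library left out (2 without siRIPK2_1 and 2 without siRIPK2_2). At an unadjusted p under 0.05 edgeR had 171 lower and 184 higher genes against both controls. At that level siNC and WT also differed from each other, so a count against either alone cannot be read as the knockdown only. Several members changed sign, SLC43A2 without siRIPK2_3 by the widest margin, and SLC7A5 against both controls without siNC. In limma-voom SLC38A1 and SLC43A2 had -0.0074 and -0.36 against siNC. With 1 library left out, log2 fold changes against siNC ran from -0.10 to 0.067 for SLC38A1, -0.032 to 0.21 for SLC1A5, -0.023 to 0.23 for SLC3A2 and -1.16 to 0.77 for SLC43A2. Against WT they ran from -0.059 to 0.11 for SLC38A9, -0.0058 to 0.24 for SLC1A5, -0.0048 to 0.26 for SLC3A2, -0.27 to 0.092 for SLC7A5 and -0.36 to 1.58 for SLC43A2. Against both controls they ran from -0.14 to 0.022 for SLC38A1, -0.28 to 0.045 for SLC38A9, -0.017 to 0.23 for SLC1A5, -0.012 to 0.24 for SLC3A2, -0.047 to 0.72 for SLC7A5 and -0.81 to 1.24 for SLC43A2. The cause was not tested. No paired analysis was possible because the labels number the siRIPK2 libraries only. The lone controls and the spread of the siRIPK2 libraries limit which differences could pass.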
